A study of Capra hircus with 6 samples.

Results

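The genes described here are 10 regulators and surface markers of the hair follicle: LHX2, SOX9, NFATC1, CD34 and CD200, known from its stem cells, and SOX2, SOX18, TBX18, ALX4 and PRDM1, known from its dermal papilla. They were chosen by name, and each was taken from the locus of the deposited table whose gene name equals it. This gave 9 of the 26938 loci of the table, and SOX9 was not analysed here. The samples were biopsies of flank skin from 6 Pashmina goats, all female and 26 months old (Changthangi, written Chanthangi in the labels), 2 with a white, 2 with a brown and 2 with a black coat, all from a single farm and taken at the same time. The design text of the series differs from these labels, with grey in place of brown and 6 goats per colour, and the labels were followed. Coat colour was the difference they give, and the stage of the hair cycle is not given in the sources used here. The deposited expression value is FPKM (sequenced fragments relative to the exon length of the locus and to the mapped fragments of the library), given once per locus and colour and pooled over the 2 goats of that colour. A spread between goats can therefore not be given, no test between colours was run, and every difference below is a description of pooled values. Ratios between colours are written white/black, brown/white and brown/black, and values given as a row of 3 are those of white, brown and black skin in that order.

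The hair follicle is renewed in cycles. Stem cells rest in the bulge, a part of the outer root sheath, and in the hair germ below it, and they are called to divide by the dermal papilla, a cluster of mesenchymal cells at the base of the follicle that sends Wnt, FGF and BMP signals and BMP inhibitors. Pashmina, the undercoat of these goats, is made by secondary follicles that grow and rest with the season, so a biopsy holds papillae, sheaths and growing shafts in proportions that follow the cycle. The regulators are few in each follicle and a biopsy holds epidermis, dermis, vessels and glands as well. In such bulk tissue fewer cells of a type and less RNA per cell cannot be told apart.

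The 9 loci lie on 7 chromosomes. In the coordinates of the deposited table, counted from 1, and with each chromosome taken from the majority of gene names in a later annotation of the goat, LHX2 spans chromosome 11 from 93594566 to 93614023 and NFATC1 chromosome 24 from 797566 to 872235. CD34 spans chromosome 16 from 73087392 to 73110203, and CD200 chromosome 1 from 55725335 to 55746365. SOX2 was given chromosome 1 from 83673878 to 83714626, an interval of 40749 bp that it shares in full with the lncRNA locus LOC106502138. SOX18 spans chromosome 13 from 52078198 to 52078789, only 592 bp, so its value rests on a short gene model. TBX18 spans chromosome 9 from 51432082 to 51460506, PRDM1 the same chromosome from 30886420 to 30908039, and ALX4 chromosome 15 from 70622199 to 70637413. The genome build is not given in the sources used here. Whether counting used strand is not stated either, so reads of overlapping loci cannot be told apart. At LOC106502138 the FPKM was 0, 0.0495 and 0.0217, below that of SOX2 in each colour. A second lncRNA, LOC102180967, ends 75 bp from the start of the CD200 locus and was measured at 2.69, 3.06 and 2.86 FPKM.

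Among the 9 genes, CD34 had the highest and SOX2 the lowest FPKM in every colour. The level of 7 genes was lowest in black skin. Most loci above 0 FPKM in every colour and at least 1 in the highest were also lowest there. The gene with the largest ratio between colours was TBX18, 2.44-fold higher in white than in black skin, followed by SOX2 at 1.93-fold and PRDM1 at 1.86-fold for the same colours. The highest and the lowest colour differed by 1.14-fold to 1.57-fold for the other 6 genes.

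**Figure D1:**
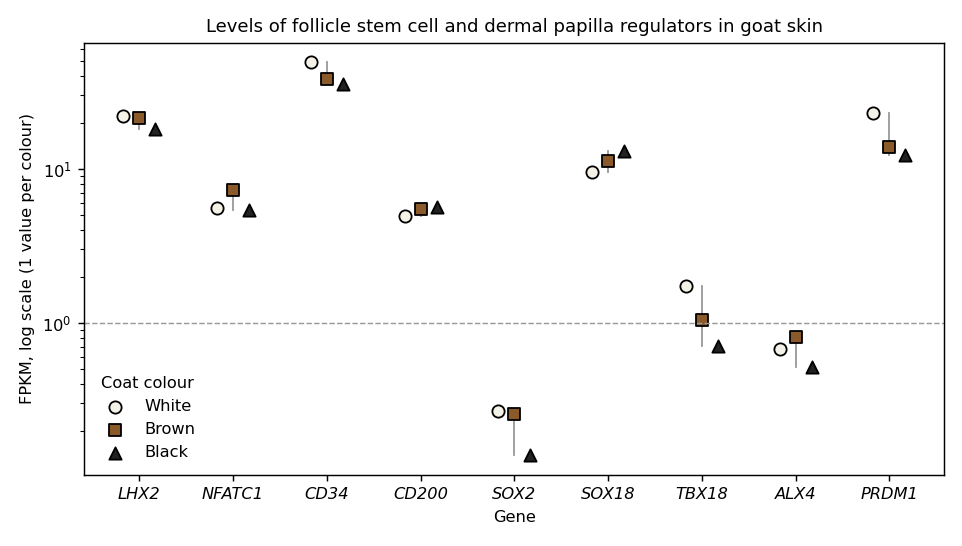
FPKM of the 9 genes (log axis) in white (circle), brown (square) and black (triangle) skin, 1 pooled value per colour with no error bar, the vertical line joining the lowest and the highest colour and the dashed line marking 1 FPKM. CD34 lay highest, from 35.5 to 49.2, and SOX2 lowest, from 0.138 to 0.267.

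Of the stem cell genes, LHX2, a LIM homeodomain factor of the placode and of bulge stem cells in the mouse, was measured at 22.2, 21.5 and 18.1 FPKM. These levels lay close together, at percentile 79.2 to 81.0 of all loci with FPKM above 0 in the same colour. The log2 ratio of LHX2 was 0.29 in white/black, -0.04 in brown/white and 0.25 in brown/black. NFATC1, a calcineurin-dependent factor that keeps mouse bulge cells at rest, was measured at 5.56, 7.28 and 5.43 FPKM. It was highest in brown, with a log2 ratio of 0.39 to white and 0.42 to black, and nearly level between white and black with 0.03. The sign of the last value turned to -0.20 when the median of all loci was subtracted. Set against loci with a similar distance between their ends, NFATC1 was at 0.03 in brown/black and 0.43 in brown/white.

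CD34, a sialomucin on mouse bulge cells that in most mammals also marks vessel endothelium and dermal stromal cells, was measured at 49.2, 38.5 and 35.5 FPKM. The log2 ratio of CD34 was 0.47 in white/black, -0.35 in brown/white and 0.12 in brown/black, the last turning to -0.08 relative to the median of all loci. CD200, a surface glycoprotein that restrains myeloid cells and marks the human bulge, was measured at 4.97, 5.47 and 5.65 FPKM. It went the other way from CD34, with the highest level in black, and had the smallest range of the 9 genes. Its log2 ratios were -0.18 in white/black, 0.14 in brown/white and -0.05 in brown/black, and the 0.14 became -0.05 when the median of the reference genes was subtracted.

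Of the dermal papilla genes, TBX18, a T-box factor of mouse papilla precursors and also of pericytes, was measured at 1.73, 1.04 and 0.709 FPKM. The log2 ratio of TBX18 was 1.29 in white/black, -0.74 in brown/white and 0.55 in brown/black. It was thus highest in white skin and lowest in black, with brown between them. PRDM1, a zinc finger repressor found in the mouse in the papilla, the inner root sheath, differentiating epidermis and sebaceous gland, and in plasma cells, was measured at 23.0, 13.9 and 12.4 FPKM. Here white stood apart from the other colours, with log2 ratios of 0.89 in white/black and -0.73 in brown/white. Between brown and black PRDM1 had a log2 ratio of 0.17, which turned to -0.03 relative to the median of all loci.

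SOX18, an HMG box factor of vessel endothelium and of mouse papillae, was measured at 9.50, 11.2 and 13.0 FPKM, in the order opposite to that of TBX18 and PRDM1. The log2 ratio of SOX18 was -0.46 in white/black, 0.24 in brown/white and -0.22 in brown/black. SOX2, an HMG box factor of the papillae of some mouse hair types, of Merkel cells and of Schwann cell precursors, was measured at 0.267, 0.257 and 0.138 FPKM. ALX4, a homeodomain factor of the papilla whose loss causes alopecia in humans, was measured at 0.674, 0.813 and 0.517 FPKM. SOX2 and ALX4 stayed under 1 FPKM in every colour, at percentile 12.1 to 26.5 of loci. Their log2 ratios over black were 0.95 and 0.38 in white and 0.89 and 0.65 in brown, and these rest on levels at which ratios of all loci scatter widely.

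A locus was compared between a pair of colours where FPKM was above 0 in both and at least 1 in the higher one, and was counted as past the fold where the log2 ratio reached 1 in either direction. Of the 9 genes, 7 passed this level filter in each comparison and SOX2 and ALX4 in none. Between white and black skin, 1 of these 7 was past the fold, TBX18, which was higher in white. Of all 14134 loci compared there, 13.0% were past the fold, 10.7% higher and 2.29% lower in white. TBX18 passed the level filter through its white value alone, and with an FPKM of at least 1 asked of both colours it was not compared. With 1 added to each FPKM its log2 ratio was 0.68. Between brown and white none of the 7 genes was past the fold. Of 14207 loci 7.27% were, 2.41% higher and 4.86% lower in brown. Between brown and black none of the 7 was either, beside 4.77% of 13881 loci, 3.52% higher and 1.25% lower in brown. As these comparisons share goats, their values are not independent of each other.

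Both comparisons with black were shifted over all loci. The median log2 ratio was 0.23 in white/black, -0.03 in brown/white and 0.20 in brown/black among loci that reached 1 FPKM in each colour of the pair. The 14 reference genes, none of them past the fold, had medians of -0.08, 0.19 and 0.11. Relative to the median of all loci, white/black was 1.06 for TBX18, 0.67 for PRDM1, 0.24 for CD34, 0.06 for LHX2, -0.20 for NFATC1, -0.41 for CD200 and -0.69 for SOX18. The order white, brown, black from high to low was found for SOX2, TBX18, PRDM1, LHX2 and CD34. It was also the most frequent order, at 35.2%, among the 14273 loci above 0 FPKM in every colour and at least 1 in the highest. Of these loci, 56.5% were lowest in black, where 7 of the 9 genes were. With the median subtracted, 36.7% of these loci were lowest in black and 4 genes, SOX2, TBX18, LHX2 and ALX4. SOX2 and ALX4 stayed under 1 FPKM and are not among these loci, so the gene counts and the shares differ in level filter. The shift grew with the distance between the ends of a locus, from 0.05 at loci of up to 3 kb to 0.65 at loci over 100 kb for white/black. All of the 9 loci but NFATC1 spanned at most 40749 bp. For NFATC1, at 74670 bp, white/black was -0.37 and brown/black 0.03 once it was set against loci of its own span.

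Low values scatter more, so each gene was also set beside loci within 2-fold of its own level. For TBX18 the 10th to 90th percentile of white/black among 2851 such loci ran from -0.57 to 1.41, and its value of 1.29 lay inside. For PRDM1 the range among 4780 loci was -0.35 to 0.79, and its 0.89 lay above it. Between brown and white the range at the level of PRDM1 was -0.50 to 0.47 among 4902 loci, and its -0.73 lay below it. SOX18 lay under its range for white/black, -0.46 beside -0.33 to 0.85, and just inside its lower end, at -0.22, for brown/black. The values of LHX2, NFATC1, CD34, CD200, SOX2 and ALX4 lay inside in all 3 comparisons. By design a share of loci lies beyond each end of such a range. Of loci of similar level, 14.2% lay at least as far from the median of all loci as PRDM1 in white/black. For PRDM1 in brown/white the share was 8.67%, and for SOX18 in white/black it was 14.7%. These ranges describe the table, not the spread between goats.

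**Figure D2:**
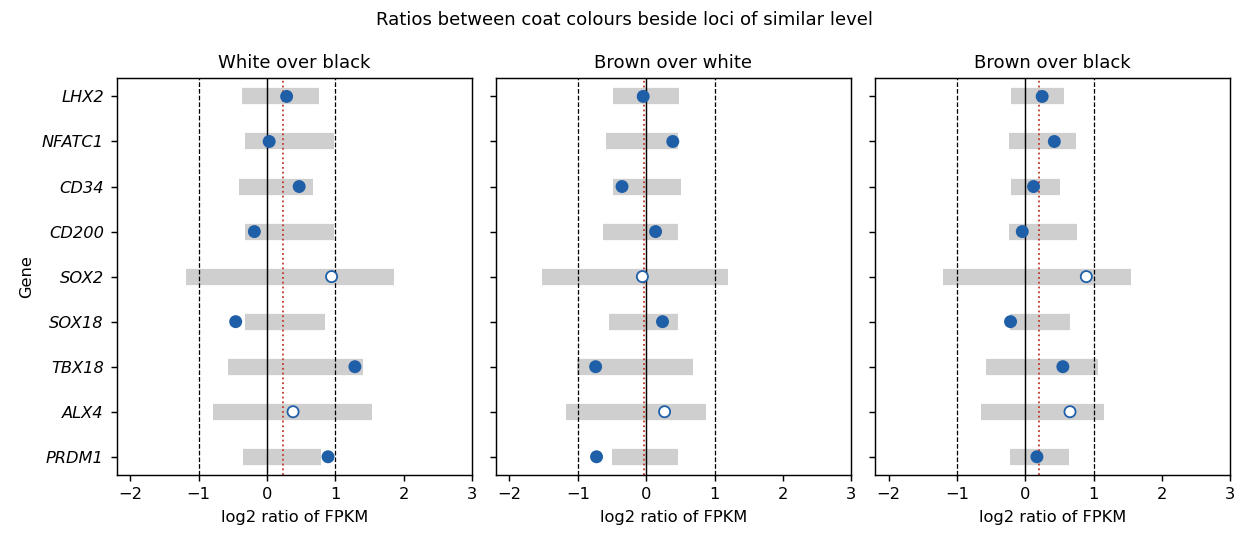
Log2 ratio of FPKM of the 9 genes (points, open where the level filter was not passed) in the 3 comparisons, with the 10th to 90th percentile of loci of similar level (grey bars), the median of all loci (dotted red) and the fold threshold (dashed). TBX18 was past the threshold in white/black with 1.29, inside its grey bar, while PRDM1 lay outside its bar at 0.89 in white/black and at -0.73 in brown/white.

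Other genes of the stem cells and outer root sheath are listed with LHX2, NFATC1, CD34 and CD200. Of the 26 listed genes in the table, 24 were compared between white and black. Of these 18 were higher in white, 14 of them above the median of all loci. Past the fold were 4 genes, all higher in white. These were POSTN, a matrix protein (1147, 649 and 396 FPKM), NPNT, the nephronectin by which bulge cells hold the arrector pili muscle (12.8, 6.36 and 4.57), COL17A1, the hemidesmosome collagen of stem and basal cells (242, 175 and 96.3), and DIO2, which activates thyroid hormone (9.55, 7.25 and 4.69). The median log2 ratio of the 24 genes was 0.42, beside 0.26 over all loci compared. Between brown and white NPNT alone was past the fold, at 0.499 of its white level in brown. Between brown and black the integrin ITGA6, of the basement membrane side of stem and basal cells, was alone past it, higher in brown at 1.03. Relative to the median of all loci, 3 genes of the list stayed past the fold in white/black and none in the other comparisons. The chemokine CXCL14 (457, 541 and 560 FPKM) and ID3, an inhibitor of HLH factors (62.3, 69.6 and 71.0), had levels near each other, and ID3 was the gene nearest to CD200 in pattern.

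The dermal papilla list went in both directions. Of 35 genes, 28 were compared between white and black, with a median of 0.24. Of these 17 were higher in white, 5 of them past the fold, and 3 genes were past the fold and lower in white. Past the fold and higher with TBX18 was NCAM1, a cell adhesion molecule (3.05, 2.36 and 1.11 FPKM). So were 3 genes named after their values were seen: CORIN, a papilla protease (1.28, 1.06 and 0.590), LEF1, the Wnt effector (20.1, 12.2 and 9.36), and BMP4 (20.4, 12.4 and 10.1). LEF1 is counted in the hair matrix list as well. Past the fold and lower in white were CRABP1, a retinoic acid binding protein (25.3, 33.2 and 68.2), ENPP2, which makes lysophosphatidic acid (13.4, 29.8 and 31.7), and FGF7, a papilla signal to keratinocytes (5.15, 12.6 and 11.9). Relative to the median of all loci the counts past the fold were 2 higher and 4 lower, and set against loci of similar span they were 2 and 5. The excess of higher genes past the fold thus turned. FGF7, with a locus of 379957 bp, was at -2.00 on the span-adjusted scale and NCAM1 at 0.68.

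Between brown and white, 4 papilla genes were past the fold and all were higher in brown. They were FGF7 (log2 ratio 1.29), ENPP2 (1.15), TWIST2, a mesenchymal factor (1.13), and RSPO3, a Wnt amplifier (1.10). The papilla regulators TBX18, PRDM1 and SOX18 lay at -0.74, -0.73 and 0.24 in the same comparison. Between brown and black NCAM1 was higher (1.10) and CRABP1 lower (-1.04) in brown. SOSTDC1, a BMP and Wnt antagonist, was among the highest of the list and nearly level at 43.1, 49.2 and 41.7 FPKM.

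Of the partners and targets of the regulators, 7.69% were past the fold in white/black, beside 13.0% of all loci compared. In brown/black 7.69% were as well, beside 4.77%, and in brown/white none, beside 7.27%. LHX2 acts with the LIM cofactor LDB1 and is opposed by LMO4, which was measured at 95.3, 84.7 and 63.4 FPKM. Of 26 genes compared between white and black, 18 were higher in white, with a median of 0.34. Past the fold were 1 gene higher and 1 lower in white. The higher one was MEF2C, an endothelial and muscle factor, with a log2 ratio of 1.06. Between brown and black 1 of 26 was higher and 1 lower in brown, the higher one being LDB2, a LIM cofactor, at 1.03, and between brown and white none of 25 genes was past the fold. Relative to the median of all loci neither MEF2C nor LDB2 stayed past it.

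Of 44 paralogs in the table, most were low, and 18 were compared between white and black. The 4 past the fold were all higher in white, among them the T-box gene TBX19 (2.39, 0.667 and 0.311), SOX5 (1.82, 0.594 and 0.290) and SOX6 (1.11, 0.430 and 0.192). These genes passed the level filter through white alone, and SOX5 and SOX6 lie in loci of 450823 and 434861 bp. Their white/black log2 ratios of 2.65 and 2.53 were 1.86 and 1.74 beside loci of similar span. For TBX19, at 27870 bp, the log2 ratio of 2.94 became 2.72. In brown/white TBX19, SOX5 and SOX6 were lower as well (-1.84, -1.61 and -1.37), and SOX8 was 1 of 2 paralogs past the fold in brown/black, higher in brown at 1.89. By the mean over the 3 colours the paralogs with the highest levels were SOX15 (10.4, 13.8 and 11.2 FPKM), the dermal T-box gene TBX15 (10.6, 10.7 and 8.66) and NFATC4 (6.54, 8.18 and 11.9). NFATC4 was highest in black, unlike NFATC1, and stood in this group through its black level, since NFATC3, named after its values were seen, was above it in white and brown (8.45, 8.26 and 6.41).

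Several of the 9 genes are also expressed outside the follicle, and the markers of those cells were read beside them. CD34 and SOX18 both belong to endothelium. Of 14 endothelial genes none was past the fold in any comparison, the median log2 ratio was 0.38 in white/black and -0.35 in brown/white, and the summed level was 207, 161 and 142 FPKM. PLVAP had 77.6, 50.3 and 44.6 and PECAM1 42.7, 42.3 and 32.8. The order of CD34 was that of the summed endothelial level and the order of SOX18 was opposite to it, as was that of SOX17 between white and the other colours (0.883, 1.41 and 1.31), which was named after its values were seen. The part of endothelial cells in the ratios of CD34 and SOX18 was not tested. Of 7 lymphatic genes, 4 were compared between white and black, with PDPN (20.4, 61.9 and 61.9) and CCL21 (14.1, 22.7 and 28.8) lower in white. The other compared genes, named after their values were seen, did not share this, with LYVE1 at 2.02, 2.25 and 1.13 FPKM (0.84 in white/black) and MMRN1 at 3.22, 2.80 and 3.38 (-0.07).

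TBX18 is shared with pericytes and dermal mesenchyme. Of 13 pericyte and smooth muscle genes 10 were higher in white than in black. Past the fold were 2 of them, RGS5 (97.8, 67.5 and 40.4 FPKM) and NOTCH3 (32.9, 22.1 and 15.3). Of 12 fibroblast genes 9 were higher in white, and 3 of them were past the fold, COL1A2 (422, 268 and 208), COL3A1 (486, 265 and 171) and PI16 (113, 41.2 and 28.8). Above the median of all loci lay 7 genes of each list. Relative to the median of all loci 1 and 2 genes stayed past the fold, and beside loci of similar span 0 and 2, while TBX18 stayed past it on both scales. The summed levels were 836, 664 and 725 FPKM for the pericyte and smooth muscle list and 2906, 2424 and 1952 for fibroblasts. By the mean over the 3 colours the highest genes were TAGLN (201, 182 and 224) and ACTA2 (228, 149 and 184) of the former and DCN (869, 1038 and 806) and COL1A1 (475, 306 and 258) of the latter, so members of each list differed in direction. In white skin COL3A1 was above COL1A1. The part of pericytes, smooth muscle and fibroblasts in the ratio of TBX18 was not tested.

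PRDM1 was read beside the growing follicle, the epidermis, the sebaceous gland and plasma cells. All 8 hair matrix genes were past the fold and higher in white than in black, with a median of 1.32. In brown all 8 were lower than in white (median -0.98), 3 of them past the fold, and none was past the fold between brown and black. Relative to the median of all loci 5 of the 8 stayed past the fold in white/black. DLX3 (75.2, 38.8 and 37.5 FPKM) and HOXC13 (60.4, 33.8 and 25.9) were the highest of them. All 6 inner root sheath genes were higher in white than in black, 4 of them past the fold. All 6 were lower in brown than in white, 2 of them past the fold. The keratins KRT25 (3390, 2011 and 2037) and KRT27 (2598, 1619 and 1418) led the list. The medians of brown/black were smaller, 0.38 and 0.32 for the lists, and PRDM1 too had its smallest ratio there. Of 10 genes of suprabasal epidermis 1 was past the fold, IVL, the cornified envelope protein involucrin, named after its values were seen. As deposited it followed the order of PRDM1, with 130, 63.5 and 40.5 FPKM. Its log2 ratios were 1.68 in white/black and -1.03 in brown/white, the latter no longer past the fold beside loci of similar span. The white/black ratio of IVL was the largest of the list. Of the 10 genes 7 were higher in white than in black, with a median of 0.23 beside 0.26 over all loci compared. FLG, KLK5 and KLK7 were lower in white. KRT1 (4835, 5825 and 4335) and KRT10 (4326, 3480 and 2602) were the highest. Of 10 sebaceous genes none was past the fold between white and black, with PLIN2 at 269, 255 and 277 and ELOVL3 at 153, 101 and 125 FPKM. In brown/white 1 was, DGAT2 of triglyceride synthesis, named after its values were seen, at 79.0, 37.0 and 41.0 FPKM with a log2 ratio of -1.10, and PRDM1 too was lower in brown there. The B and plasma cell markers were mostly low, with 6, 7 and 6 of 10 under 1 FPKM in the 3 colours, and JCHAIN, of plasma cells, had 0.987, 4.96 and 1.20 FPKM, highest in brown where PRDM1 was not. IRF4, a factor of plasma cells and of other cells, was named after its values were seen. As deposited it followed the order of PRDM1 with 2.03, 0.914 and 0.565 FPKM. It was past the fold in white/black (1.84) and brown/white (-1.15). Of the 5 genes of the list compared between white and black 2 were higher in white, with a median of -0.04. SDC1, shared with keratinocytes, had 246, 206 and 168. The part of these cells in the level of PRDM1 was not tested.

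**Figure D3:**
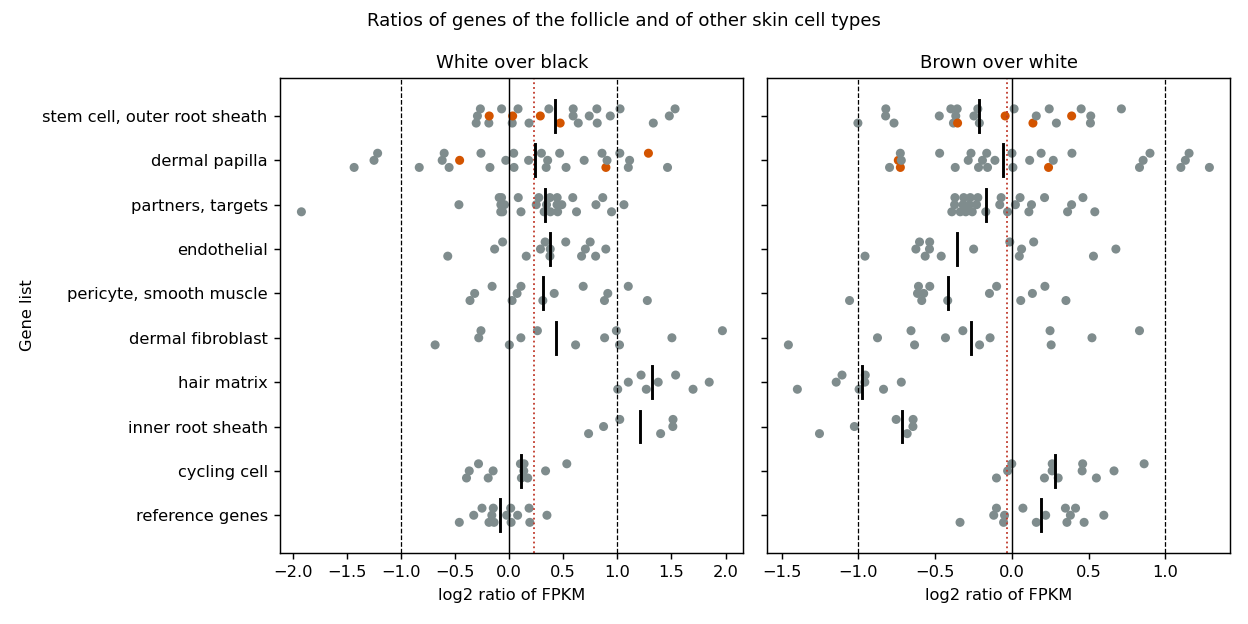
Log2 ratios of FPKM in white/black (left) and brown/white (right) of the genes in 10 lists (points) that passed the level filter, with the list median (black bar), the median of all loci (dotted red) and the fold threshold (dashed), and the regulators in orange. The hair matrix list lay at a median of 1.32 and -0.98, while the orange points of the stem cell list lay between -0.18 and 0.47 in white/black.

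SOX2 was read beside Merkel and Schwann cells. Of the Merkel markers, ISL1 and POU4F3 were listed at 0 in every colour and ATOH1, the defining factor, in white and brown, with 0.0253 FPKM in black. KRT18 had 6.11, 7.12 and 4.92 FPKM and CHGA 0.202, 1.29 and 2.14, and CHGA was past the fold, lowest in white, in both comparisons with white. Of 9 Schwann cell genes none was past the fold in any comparison, with PMP22 at 85.8, 93.2 and 79.8 FPKM and ERBB3 at 67.3, 47.9 and 40.7. T cells may also express NFATC1 and PRDM1. All 9 T cell genes were higher in white than in black, none of them past the fold. All 9 were lower in brown than in white, 2 of them past the fold, with a median log2 ratio of -0.75. CD3E had 11.3, 6.70 and 8.13 and CD3D 5.92, 2.92 and 4.83, lowest in brown, where NFATC1 was highest. Of 8 melanocyte genes 2 were higher in white than in black, both past the fold. The others were lower in white, 4 of them past the fold, with PMEL at 3.77, 22.5 and 30.9 and MLANA at 5.86, 14.8 and 5.95. None of the 12 cycling cell genes was past the fold (PCNA 49.0, 89.0 and 63.2, TOP2A 20.5, 28.3 and 19.1), nor was any of the 4 basal keratinocyte genes, led by KRT14 (8995, 12437 and 7238) and KRT5 (8042, 9336 and 5986), so keratinocyte keratins were abundant as in any skin.

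The genes most like a regulator in pattern were found among 210 other listed genes with at least 1 FPKM in every colour, by the distance between their log2 ratios of white and of brown over black. With 3 colours this rests on a pair of ratios per gene, and says nothing of shared function or control. PRDM1 was nearest to KRT27 of the inner root sheath, at a distance of 0.03, and to COL1A1, at 0.08. LHX2 was nearest to CCNB2, a cyclin (0.05), and to TBX15 (0.06). CD34 was nearest to CRKL, an adaptor that binds it (0.06), and to PPP3CC, a calcineurin subunit (0.06). NFATC1 was nearest to the reference gene YWHAZ (0.02) and to PDGFRB of pericytes (0.04), and CD200 to ID3 (0.02). For SOX18 the nearest genes were farther away, KCNJ8 of pericytes at 0.12 and the muscle gene DES at 0.15. TBX18, SOX2 and ALX4 were under 1 FPKM in at least 1 colour and were not compared in this way.

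**Figure D4:**
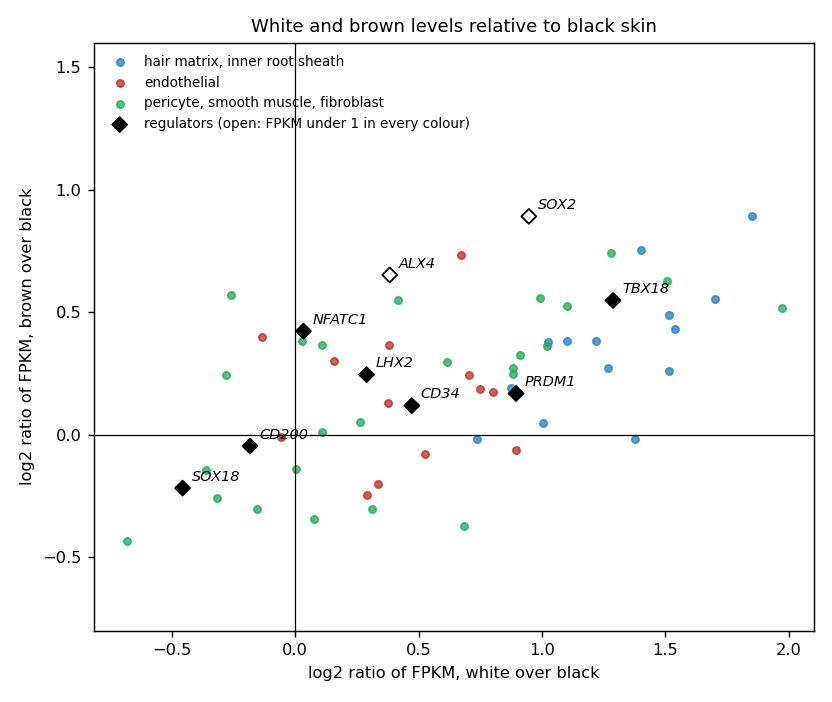
Log2 ratio of FPKM in white/black (horizontal) and in brown/black (vertical) for the 9 regulators (diamonds, open where FPKM was under 1 in every colour) and for marker genes of other cells with at least 1 FPKM in every colour (dots). PRDM1 lay at 0.89 and 0.17, next to KRT27 at 0.87 and 0.19, TBX18 at 1.29 and 0.55, and SOX18 and CD200 on the negative side of both axes.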

How the data were processed

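Poly-A RNA of flank skin was sequenced as paired reads. Per the methods, reads with a quality over 20 and a length over 25 were kept and aligned to an NCBI goat genome with TopHat 2.1.0 and Bowtie 2.2.6, allowing 1 mismatch in the seed and reporting all multiple positions, which can blur paralogs. The authors then derived the deposited FPKM with Cufflinks 2.2.1 and CuffDiff, 1 value per locus and colour from 2 goats. How libraries were scaled is not stated. The authors' fold changes, test statistics, p-values and q-values in the same table were not used.

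White was read from the rows that pair it with black, and brown likewise. Low values showed no common step (the most frequent ratio recurred at 4 of 863 low loci), so the reads behind each value were not recovered. Sequencing depth is reported by the paper as a range of paired reads per sample and was not used here. No pseudocount was added, and medians by span used 20 bins. A RefSeq table (ARS1.2) gave classes and chromosomes only, with at least 91.5% of names agreeing for each of the 9 loci.

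The genes and the 21 lists, the described genes included, were chosen with earlier results of these data known. Named from the stem cell, papilla, partner and paralog lists were up to 4 genes past the fold with the largest ratio and the 2 others with the highest FPKM, and from marker lists the 2 highest and those past the fold beside TBX18. Other genes are said to be chosen after their values were seen, or are the 2 nearest in pattern. Some genes this rule would name are not reported here. Pseudocount, level filter, scaling, span and fold were varied. The calling step was tested on simulated data. Python 3.11.15, numpy 2.4.6 and pandas 2.3.3 were used.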

Additional observations from a re-analysis of the deposited data

How the results depend on the processing

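The count of regulators past the fold was recomputed under 10 alternatives. For white against black it was 1, TBX18, and stayed at 1 with a pseudocount of 0.1, with no minimum FPKM and with the median of all loci, of reference genes or of loci of similar span subtracted. It was 0 with a pseudocount of 1, with both colours held to 1 FPKM or more, with at least 5 in the higher colour and with a log2 threshold of 2. It was 2 with a threshold of 0.5, where PRDM1 joined TBX18. Both stricter filters left TBX18, at 0.709 FPKM in black and 1.73 in white, out of the comparison. For brown against white and brown against black the count was 0 under all 10 except the threshold of 0.5, which gave 2 (TBX18 and PRDM1) and 1 (TBX18). The ratio of TBX18 in white against black kept its sign with the median of all loci, of reference genes or of loci of similar span subtracted. The other alternatives could not have changed its sign.

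In white against black 7 regulators were compared as reported, 9 with no minimum and 6 with either stricter filter. Over all loci the count past the fold was 1836 of 14134 (13.0%). It was 857 (6.06%) with a pseudocount of 1, 3415 of 18313 (18.6%) with no minimum and 1203 of 13050 (9.22%) with both colours held to 1 FPKM. It was 936 of 9978 (9.38%) with at least 5 in the higher and 1201 (8.50%) with loci of similar span subtracted. At thresholds of 0.5 and 2 it was 5639 (39.9%) and 240 (1.70%). In brown against white it was 1033 of 14207 (7.27%). Under the same settings without the span it was 502 (3.53%), 2364 of 18421 (12.8%), 655 of 13359 (4.90%), 501 of 10097 (4.96%), 3804 (26.8%) and 145 (1.02%). In brown against black it was 662 of 13881 (4.77%), and then 207 (1.49%), 1998 of 18208 (11.0%), 364 of 13077 (2.78%), 225 of 9711 (2.32%), 3812 (27.5%) and 88 (0.63%). No paired analysis was possible because the deposited table holds 1 pooled value per colour. No goat was left out in turn, since goats have no values of their own there, and the counting error of each value is unknown.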
